A study of Mus musculus with 4 samples.

Results

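Chemokines and their receptors were followed in 4 bones of the mouse. The genes were those whose array name was Ccl, Cxcl, Ccr or Cxcr followed by a number, with Cxcl12 and Cxcr4 left out. This gave 43 genes on 52 probes, of 27742 genes and 41174 probes with a value. They comprised 19 Ccl and 11 Cxcl genes, which encode 30 ligands, and 10 Ccr and 3 Cxcr genes, which encode 13 receptors. RNA came from the maxilla and the mandible (jaw bones) and from the ilium and the femur (a trunk and a limb bone). All bones were from male C57BL/6 mice aged 35 days, with no treatment or genetic change named in the labels. Each bone had 1 one-colour array, and the number of mice behind an array is not stated in the labels. The study set jaw bones against trunk and limb bones, and in every comparison of these classes the bone was the unit (2 bones a class).

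Chemokines are small secreted proteins that guide the migration of leukocytes through receptors that signal via G proteins. Inflammatory chemokines are induced in injured or infected tissue and recruit neutrophils, monocytes and effector lymphocytes, whereas homeostatic ones place lymphocytes in lymphoid organs, gut and skin. Bones hold marrow, in which leukocytes that carry many of these receptors are made, and megakaryocytes, which store platelet chemokines. CC and CXC chemokines are named for the spacing of their first cysteines, and CXC ligands with the motif glutamate-leucine-arginine (ELR) attract neutrophils.

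Values are log2 of the processed signal over the 75th percentile of the same array, so 0 is the 75th percentile and each unit is a 2-fold step. They compare bones for 1 probe. Levels of different genes are not compared, because brightness also depends on the probe. Between 72.8% and 75.5% of the spots on an array were well above background by the scanner program, and none of the member probes was saturated (0 of 52). The 6 bone markers with a value, among them Bglap1 (osteocalcin), Col1a1 and Dmp1, were well above background in every bone, with a summed signal of 388 and 399 in maxilla and mandible and of 309 and 261 in ilium and femur, in multiples of the 75th percentile. Summed signals of blood cell markers were lower in the jaw bones. Those of stratified epithelium were higher there, and those of nasal and salivary secretion stood out in the maxilla. These sums are given beside chemokines for description, whether or not both go the same way. In RNA from a whole bone, fewer cells of a type and less RNA per cell cannot be told apart.

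Of the 43 genes, 31 were well above background in all 4 bones. Cxcl13 was so in 3 bones and Ccr10 in 2. Ccl20 and Cxcl1 were so in the maxilla only, as 2 genes on 1 array each. The remaining 8 (Ccl1, Ccl22, Ccr1, Ccr4, Ccr8, Cxcl2, Cxcl11 and Cxcl15) were not well above background in any bone, with values from -8.78 to -6.50. The 33 genes well above background in at least 2 bones were tested, 23 ligands and 10 receptors. Of these, Ccr10 passed the filter through the ilium and femur alone.

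Promoters are shown for 6 members, chosen from the results below. They are Ccl12, which rose in jaw, Cxcl4 and Ccl6, which fell there, and Cxcl13, Ccl20 and Cxcl1, which stood out in the maxilla. Those of Ccl5, Ccl3, Ccr3 and Ccr2, which also fell in jaw, are not shown. The sequences are from RefSeq on build GRCm38.p6, from 250 bases before to 50 after the start of the gene, 5′ to 3′ on the gene's strand. Capitals mark matches on either strand to any of 5 short motifs, whose letters are given after the sequences.
Ccl12, chr11:82101595-82101894, plus strand: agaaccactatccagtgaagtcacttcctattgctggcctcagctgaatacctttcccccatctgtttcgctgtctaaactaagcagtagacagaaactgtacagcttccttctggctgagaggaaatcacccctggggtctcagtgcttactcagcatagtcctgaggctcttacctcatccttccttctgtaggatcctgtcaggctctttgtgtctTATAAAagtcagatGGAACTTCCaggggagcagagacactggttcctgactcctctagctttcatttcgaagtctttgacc
Cxcl4 (Pf4), chr5:90772185-90772484, plus strand: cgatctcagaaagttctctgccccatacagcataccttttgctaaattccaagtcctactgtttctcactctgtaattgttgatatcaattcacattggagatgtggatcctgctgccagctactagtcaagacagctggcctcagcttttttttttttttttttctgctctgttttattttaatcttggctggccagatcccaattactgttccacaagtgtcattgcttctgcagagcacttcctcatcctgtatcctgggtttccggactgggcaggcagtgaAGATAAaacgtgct
Ccl6, chr11:83593038-83593337, minus strand: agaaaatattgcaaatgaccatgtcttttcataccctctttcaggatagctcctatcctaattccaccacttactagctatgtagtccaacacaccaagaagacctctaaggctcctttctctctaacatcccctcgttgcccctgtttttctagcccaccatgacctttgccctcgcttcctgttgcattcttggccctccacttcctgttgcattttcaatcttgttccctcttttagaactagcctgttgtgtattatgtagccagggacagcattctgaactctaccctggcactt
Cxcl13, chr5:95956689-95956988, plus strand: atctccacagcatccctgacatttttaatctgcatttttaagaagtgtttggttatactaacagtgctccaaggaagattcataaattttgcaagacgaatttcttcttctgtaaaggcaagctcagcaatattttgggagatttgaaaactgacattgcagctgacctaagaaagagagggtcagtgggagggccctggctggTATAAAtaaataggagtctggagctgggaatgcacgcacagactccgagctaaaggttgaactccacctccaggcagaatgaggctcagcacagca
Ccl20, chr1:83116516-83116815, plus strand: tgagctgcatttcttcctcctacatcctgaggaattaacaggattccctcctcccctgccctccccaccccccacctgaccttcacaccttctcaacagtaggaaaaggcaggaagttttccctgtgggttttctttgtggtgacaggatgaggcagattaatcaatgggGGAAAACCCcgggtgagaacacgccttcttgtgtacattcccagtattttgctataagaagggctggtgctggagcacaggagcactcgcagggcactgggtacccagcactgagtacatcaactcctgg
Cxcl1, chr5:90890995-90891294, plus strand: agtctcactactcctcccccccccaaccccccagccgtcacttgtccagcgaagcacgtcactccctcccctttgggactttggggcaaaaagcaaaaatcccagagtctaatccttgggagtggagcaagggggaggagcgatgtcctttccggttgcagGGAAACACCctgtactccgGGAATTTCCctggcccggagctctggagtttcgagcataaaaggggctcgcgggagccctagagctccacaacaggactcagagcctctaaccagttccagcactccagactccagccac

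The kB motif, bound by NF-kB, was searched in a shortened form, as GGNNNTTCC. Of 31 members with a promoter in the table it was matched in 11 (35.5%), against 18.4% of 27025 genes. For each gene, member or not, these shares count the first start listed, in a window of the same length. Among the promoters shown, Ccl20 had 1 kB match, at position -80 from the start site on the reverse strand. Cxcl1 had matches at -89 on the reverse strand and at -70 on both strands, and Ccl12 at -17 on both strands. The interferon-stimulated element was searched, also shortened, as TTTCNNTTT and was matched in 5 members (16.1%, against 10.7% of all genes). The TATA box, searched as TATAAA, was matched in 7 members (22.6%, against 14.2%), at -31 in Ccl12 and at -46 in Cxcl13. The GATA factor motif was searched as AGATAA and was matched in 7 members (22.6%, against 11.4%). It gave the only match of Cxcl4, at position 37, after the start site. The AP-1 motif was searched as TGANTCA and was matched in 6 members (19.4%, against 7.93%), none of them shown. The promoter of Ccl6 held none of the 5 motifs. Such matches describe letters in a window and show no binding.

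In jaw against trunk and limb bones, 1 ligand that attracts monocytes, Ccl12, rose. The platelet chemokine Cxcl4, the ligands Ccl5, Ccl6 and Ccl3 and the receptors Ccr3 and Ccr2 fell. These calls are from limma, at an adjusted p under 0.05 over 20709 genes. This is 1 of 33 members higher (3.03%, against 4.52% of all genes tested) and 6 lower (18.18%, against 7.22% of all genes). At an unadjusted p under 0.05 there were 4 higher and 10 lower, against 15.7% and 18.6% of all genes. The classes did not overlap for 10 members higher in jaw (30.3%, against 31.9% of all genes) and 15 lower (45.45%, against 36.2%), and overlapped for 8. By a rule of size with no test, in which the nearest bones of the 2 classes lie at least 2-fold apart, 3 members were higher (9.09%, against 9.34%) and 9 lower (27.27%, against 9.8%). The median difference was -0.36 over the 33 members, which is the value of Ccr10, and -0.03 over all genes. Over the 31 members well above background in all 4 bones it was -0.82, against -0.04 over all genes so filtered. Of 10 receptors tested, 9 had a negative difference (median -1.71), 2 fell and 0 rose by limma. Of these 9, Ccr10 was well above background in ilium and femur only. Of 23 ligands, 11 had a negative difference (median 0.38), 4 fell and 1 rose. Whether receptors and ligands differ was not tested. With ilium or femur left out, no gene on the array passed the threshold, and 11 and 9 members had an unadjusted p under 0.05, against 17.2% and 12.7% of all genes in those fits. Without the background filter none of the 6 lower calls passed (0 lower, with 10 lower at an unadjusted p under 0.05).

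**Figure D1:**
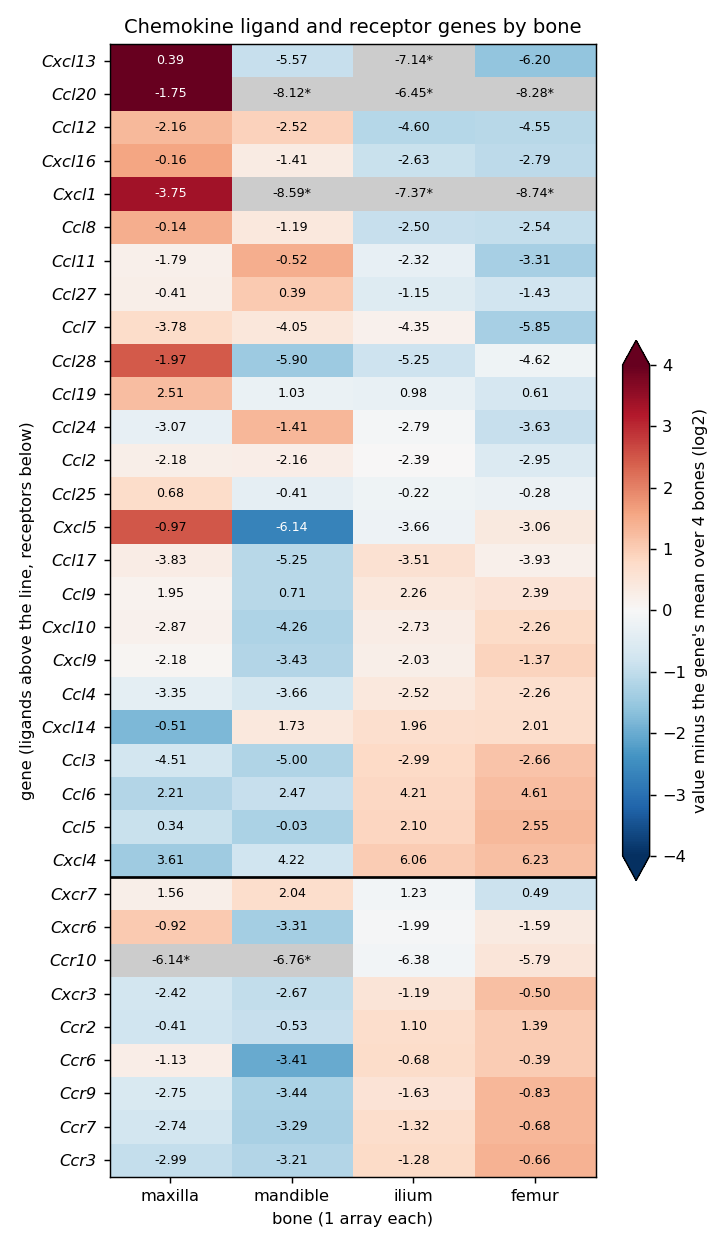
Heat map of 34 chemokine ligand (above the line) and receptor (below) genes that were well above background in at least 1 bone, in maxilla, mandible, ilium and femur (1 array each). Numbers are log2 of signal over the array's 75th percentile, colour is the value minus the gene's mean over the 4 bones, and grey cells with a star were not well above background. Cxcl13, Ccl20 and Cxcl1 are bright in the maxilla, and most receptors are lower in both jaw bones than in ilium and femur.

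**Figure D2:**
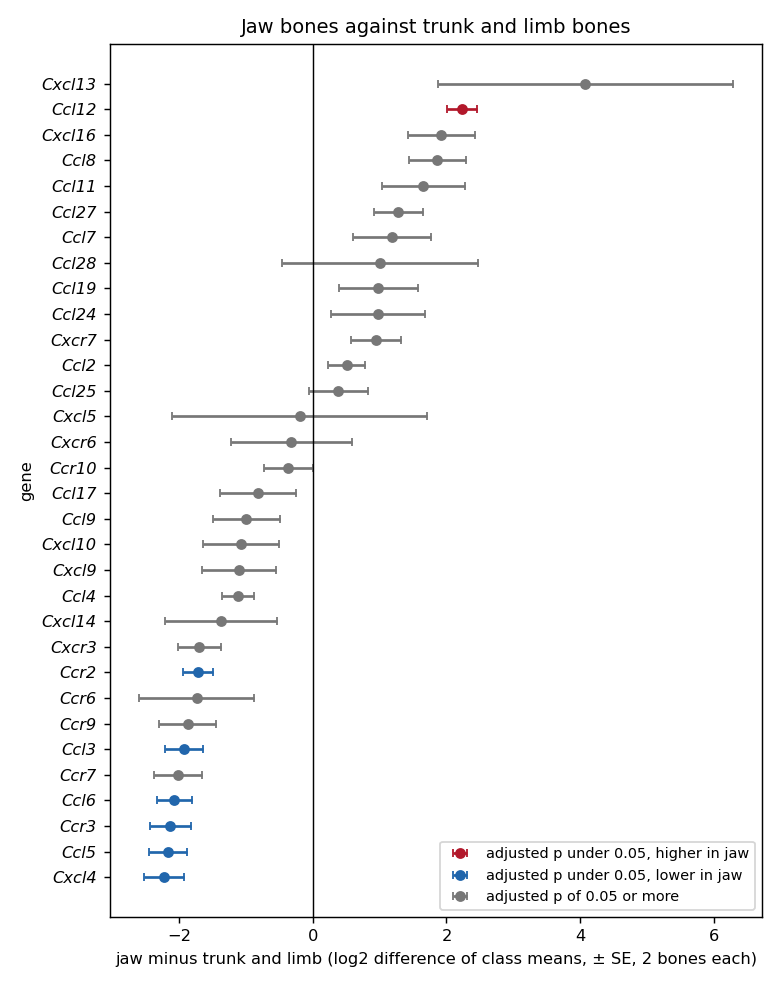
Difference between jaw bones and trunk and limb bones for 32 tested genes, as the log2 difference of class means ± SE from limma (2 bones a class). Ccl12 (2.23) is the only gene marked as higher, the 6 genes marked as lower lie between -2.23 and -1.72, and the bars of Cxcl13, Cxcl5 and Ccl28 are wide.

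Of 4 ligands listed as attracting monocytes 1 rose in jaw, while the monocyte receptor Ccr2 fell. Ccl12, a ligand of Ccr2, had values of -2.16 in maxilla and -2.52 in mandible, against -4.60 in ilium and -4.55 in femur. Both jaw bones lay above both other bones, and the bones of a class were close to each other. The difference was 2.23 ± 0.23 (SE, limma, adjusted p = 0.0326), a 4.70-fold higher signal in jaw, and with normexp background correction it was 1.47 on the log2 scale. Its probe lies at chr11:81919403-81919462 of build mm8. Ccl8, also on this list, had -0.14 in maxilla and -1.19 in mandible, against -2.50 in ilium and -2.54 in femur. The classes were separated by the size rule, with the maxilla above the mandible, and limma gave 1.86 ± 0.43 (SE, adjusted p = 0.0721). Ccl7 had -3.78 and -4.05 in maxilla and mandible, against -4.35 and -5.85 in ilium and femur. The femur was the low bone, and the difference of 1.18 ± 0.59 (SE, adjusted p = 0.246) did not pass (0.60 with normexp).

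Ccr2, which brings monocytes out of the marrow, had -0.41 in maxilla and -0.53 in mandible, against 1.10 in ilium and 1.39 in femur, with its probe at chr9:123957008-123957067. The difference was -1.72 ± 0.22 (SE, limma, adjusted p = 0.0343), 3.28-fold. Both jaw bones lay below both others, in the opposite order to Ccl12 and Ccl8. Of the 5 genes on this list, 4 ligands had positive and the receptor a negative difference, with 1 called in each direction. Macrophage markers had a summed signal of 7.62 and 9.71 in maxilla and mandible, against 16.3 and 15.3 in ilium and femur. Of 5 such markers 0 passed in either direction by limma, and 3 had an unadjusted p under 0.05, all lower. Their part in these results was not tested.

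The inflammatory CC ligands of macrophages, T lymphocytes and myeloid cells (Ccl3, Ccl4, Ccl5, Ccl6 and Ccl9) included 3 that fell in jaw. Of these 5 ligands 0 rose, and all 5 differences were negative. Ccl5 (RANTES), a product of activated T cells and platelets, had 0.34 in maxilla and -0.03 in mandible, against 2.10 in ilium and 2.55 in femur. The jaw bones were well below the other bones, and limma gave -2.17 ± 0.28 (SE, adjusted p = 0.0348). A second probe of Ccl5 gave -2.27. Ccl6, a ligand of Ccr1 made by myeloid cells in the mouse, had 2.21 and 2.47 in maxilla and mandible, against 4.21 and 4.61 in ilium and femur. Its classes were as far apart, at -2.07 ± 0.26 (SE, adjusted p = 0.0341), a 4.20-fold lower signal in jaw.

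Ccl3 (MIP-1 alpha), which acts on Ccr1 among other receptors, had -4.51 in maxilla and -5.00 in mandible, against -2.99 in ilium and -2.66 in femur. It fell by 1.93 on the log2 scale (SE 0.29, limma, adjusted p = 0.0398), and with normexp background correction the difference was -0.88 and did not pass. Ccl9, another ligand of Ccr1, had 1.95 in maxilla and 0.71 in mandible, against 2.26 in ilium and 2.39 in femur. Here the mandible was the low bone, and the difference of -0.99 ± 0.49 (SE, adjusted p = 0.248) did not pass. Ccr1 itself was not well above background in any bone. Neutrophil markers had a summed signal of 558 and 404 in maxilla and mandible, against 809 and 803 in ilium and femur, with 3 of 7 lower by limma and 0 higher. This sum follows its brightest genes, and most of the markers were lower in maxilla than in mandible. The class difference was negative for 6 of the 7, with a median of -1.24. The part of these markers in the results was not tested.

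Cxcl4, the platelet factor stored in the granules of platelets and megakaryocytes (Pf4 in RefSeq), fell. It had 3.61 in maxilla and 4.22 in mandible, against 6.06 in ilium and 6.23 in femur. Both jaw bones lay below both other bones, at -2.23 ± 0.30 (SE, limma, adjusted p = 0.0357), 4.68-fold. Its probe lies at chr5:91848449-91848508 of mm8. The 3 megakaryocyte markers Itga2b, Gp9 and Gp1bb fell as well, with a summed signal of 1.62 and 2.13 in maxilla and mandible, against 12.6 and 17.6 in ilium and femur. Their part in the result for Cxcl4 was not tested.

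Among the eosinophil chemokines the receptor fell, and neither of its 2 ligands passed the test. Ccr3, the eotaxin receptor, had -2.99 in maxilla and -3.21 in mandible, against -1.28 in ilium and -0.66 in femur. It fell by 2.13 on the log2 scale (SE 0.31, limma, adjusted p = 0.0379), with its probe at chr9:123879291-123879350. A second probe was not well above background in maxilla or mandible. Ccl11 (eotaxin-1), made by fibroblasts and epithelium, had -1.79 in maxilla and -0.52 in mandible, against -2.32 in ilium and -3.31 in femur. The mandible was the brightest bone, and the difference of 1.66 ± 0.62 (SE, adjusted p = 0.159) did not pass. Ccl24 (eotaxin-2) had -3.07 in maxilla and -1.41 in mandible, against -2.79 in ilium and -3.63 in femur. Again the mandible was brightest, the classes overlapped, and limma gave 0.98 ± 0.71 (SE, adjusted p = 0.392).

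The interferon-inducible ligands of Cxcr3, which attract activated T lymphocytes, did not pass in either direction. Of 3 tested genes on this list, 0 were called and 1 (Cxcr3) had an unadjusted p under 0.05. Cxcl9 had -2.18 in maxilla and -3.43 in mandible, against -2.03 in ilium and -1.37 in femur. Cxcl10 had -2.87 and -4.26 in maxilla and mandible, against -2.73 and -2.26 in ilium and femur. For both ligands the mandible was the low bone and the maxilla lay close to the ilium, with differences of -1.11 ± 0.55 for Cxcl9 and -1.07 ± 0.57 for Cxcl10 (SE, limma, adjusted p = 0.247 and 0.268). Their receptor Cxcr3 had -2.42 in maxilla and -2.67 in mandible, against -1.19 in ilium and -0.50 in femur. It was separated by the size rule, at -1.70 ± 0.33 (SE, adjusted p = 0.0558). It passed under the scalings by quantile, median or the deposited log2 table and with the filter on all 4 arrays.

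The lymphocyte receptors Ccr7 and Ccr9 were separated downwards in jaw by the size rule, without passing the test. Ccr7, which brings T cells and dendritic cells to lymph nodes, had -2.74 in maxilla and -3.29 in mandible, against -1.32 in ilium and -0.68 in femur. The classes did not overlap, and limma gave -2.01 ± 0.36 (SE, adjusted p = 0.0505), just short of the threshold. It passed with quantile normalization, median centring, the deposited log2 table or a filter on all 4 arrays. Ccr9, the receptor for thymic and gut homing, had -2.75 in maxilla and -3.44 in mandible, against -1.63 in ilium and -0.83 in femur, at -1.87 ± 0.43 (SE, adjusted p = 0.0717), and passed with median centring or the deposited log2 table. Ccr6, carried by B lymphocytes and T helper cells, had -1.13 in maxilla and -3.41 in mandible, against -0.68 in ilium and -0.39 in femur. Here the mandible alone was far below the rest, and the class difference of -1.74 ± 0.86 (SE, adjusted p = 0.246) did not pass. Cxcr7 (Ackr3 in RefSeq), an atypical receptor that takes up ligand in stromal and endothelial cells, was the only one of the 10 tested receptors with a positive difference. It had 1.56 in maxilla and 2.04 in mandible, against 1.23 in ilium and 0.49 in femur, at 0.94 ± 0.38 (SE, adjusted p = 0.179). B lymphocyte markers had a summed signal of 11.9 and 12.7 in maxilla and mandible, against 42.0 and 48.7 in ilium and femur, with 5 of 6 lower by limma. T lymphocyte markers had 1.1 and 0.612, against 2.64 and 3.51, with 1 of 6 lower. The part of these cells in the receptor values was not tested.

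Of 8 homing and epithelial CC ligands, 5 were tested and 0 passed by limma (1 higher and 0 lower at an unadjusted p under 0.05). Their differences were positive for 4 and negative for 1, with a median of 0.98. Of the 6 receptors on the same list 4 were tested and 0 passed (0 higher and 2 lower at an unadjusted p under 0.05). All 4 had a negative difference, with a median of -1.80, and of these Ccr10 was well above background in ilium and femur only. Ccl19, the ligand of Ccr7, had 2.51 in maxilla and 1.03 in mandible, against 0.98 in ilium and 0.61 in femur. The maxilla stood out, and the difference was 0.98 ± 0.59 (SE, adjusted p = 0.318), while a second probe gave 1.57. Ccl27, a ligand of skin epithelium, is described because it had the unadjusted p under 0.05, a choice made after its values were seen. It had -0.41 in maxilla and 0.39 in mandible, against -1.15 in ilium and -1.43 in femur. The classes did not overlap, and the difference was 1.28 ± 0.36 (SE, adjusted p = 0.102). The mouse genome has near-identical copies of Ccl19 and of Ccl27, so signal of these genes may come from several copies. Ccl25, the ligand of Ccr9, had 0.68 in maxilla and -0.41 in mandible, against -0.22 in ilium and -0.28 in femur, at 0.38 ± 0.44 (SE, adjusted p = 0.578). The maxilla again was the high bone, and without it the difference was -0.16. Ccl17, a ligand of Ccr4, had -3.83 in maxilla and -5.25 in mandible, against -3.51 in ilium and -3.93 in femur, and its difference of -0.82 ± 0.57 (SE, adjusted p = 0.378) did not pass.

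A pair of neighbouring gene sets on mouse chromosome 11 had opposite signs. In the set that spans 140 kb from Ccl2 to Ccl1 (chr11:81853343-81993088 of mm8), all 5 tested genes (Ccl2, Ccl7, Ccl11, Ccl12 and Ccl8) had a positive difference, from 0.51 to 2.23, and 1 was called. In the set of 139 kb from Ccl5 to Ccl4 (chr11:83341989-83480804), all 5 tested genes (Ccl5, Ccl9, Ccl6, Ccl3 and Ccl4) had a negative one, from -2.17 to -0.99, and 3 were called. On chromosome 9, Ccr9, Cxcr6, Ccr3 and Ccr2 lay within 327 kb (chr9:123629914-123957067) and were all negative, from -2.13 to -0.32, with 2 called. On chromosome 5, the 144 kb from Cxcl5 to Cxcl2 (chr5:91836379-91980767) held genes with different patterns side by side. There Cxcl4 fell in jaw, and Cxcl5 and Cxcl1 were high in the maxilla. Some of these signs rest on small differences. Ccl2 had 0.51 ± 0.28 and Cxcr6 had -0.32 ± 0.90 (SE, limma), and without the mandible Cxcr6 had 0.87. Over all genes tested, 4.52% were called higher and 7.22% lower, and the median difference was -0.03. Neighbouring genes are not independent of each other, and no test of position was made. Whether a probe lies in an exon or a UTR was not assigned, since no mm8 annotation was used here.

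**Figure D3:**
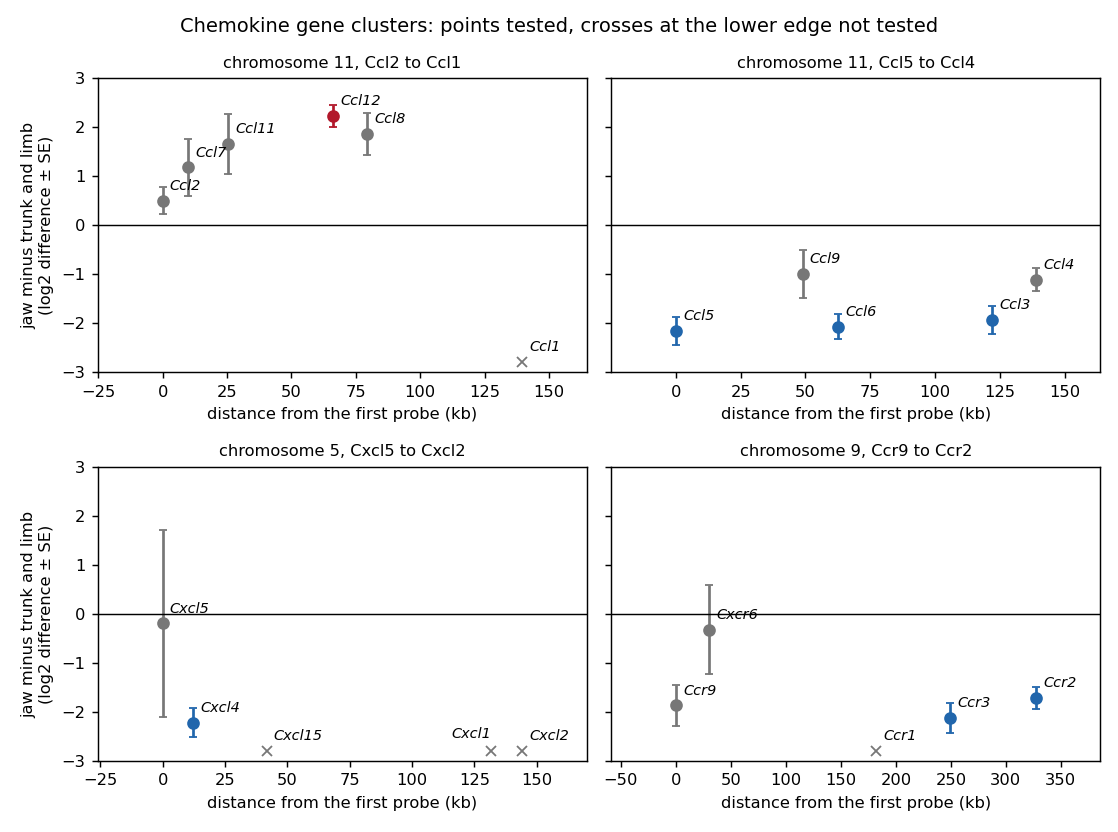
Log2 difference of jaw minus trunk and limb bones (± SE, limma) against distance in kb from the first probe, for 4 groups of neighbouring chemokine genes. Points are tested genes (red higher, blue lower at adjusted p under 0.05, grey neither), and crosses at the lower edge are genes not tested. The tested genes from Ccl2 to Ccl8 all lie above 0 and those from Ccl5 to Ccl4 all lie below it.

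Maxilla and mandible differed for more members than ilium and femur did, with 1 array each and so no test. Of 34 members well above background in the brighter jaw bone, 15 were at least 2-fold higher in maxilla (44.12%, against 16.4% of all genes counted) and 3 were lower (8.82%, against 8.79%). The 15 were 13 ligands and 2 receptors. The median of maxilla minus mandible was 0.57 over these members and -0.06 over all genes. Nasal and salivary secretory markers had a summed signal of 384 in maxilla and 0.297 in mandible, against 0.358 in ilium and 0.0362 in femur. Of these 5 markers, 1 (Obp1a) was at background level in mandible, 2 in ilium and 4 in femur. Stratified epithelium markers had 59.9 and 95.0 in maxilla and mandible, against 0.274 and 0.266 in ilium and femur. Skeletal muscle markers had 72.3 and 437, against 605 and 603. The part of such tissue in the chemokine values was not tested.

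Cxcl13, the homeostatic ligand that gathers B lymphocytes into follicles, had 0.39 in maxilla and -5.57 in mandible, against -7.14 in ilium and -6.20 in femur. The maxilla was 61.9-fold above the mandible, and the ilium signal was at background level. In the class comparison 1 bone set the value, and the difference of 4.08 ± 2.21 (SE, limma, adjusted p = 0.279) did not pass (2.28 with normexp). Its probe lies at chr5:96201144-96201203 of mm8.

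Ccl20, which epithelium secretes to attract cells with Ccr6, had -1.75 in maxilla and -8.12 in mandible, with -6.45 in ilium and -8.28 in femur. It was well above background in the maxilla alone of the 4 bones, and there at least 25.0-fold above the mandible. A bound of this kind sets the dim bone to the lowest signal well above background on its array. Its receptor Ccr6 was 4.86-fold higher in maxilla than in mandible, so ligand and receptor were both brighter in the maxilla, although for Ccr6 the ilium and femur were brighter still. Ccl28, a ligand of mucosal and salivary epithelium, had -1.97 in maxilla and -5.90 in mandible, against -5.25 in ilium and -4.62 in femur. The maxilla stood 15.3-fold above the mandible, the other 3 bones lay closer together, and the class difference was 1.00 ± 1.47 (SE, limma, adjusted p = 0.664). The Ccl28 receptor Ccr10 was near background throughout, at -6.14 in maxilla and -6.76 in mandible, against -6.38 in ilium and -5.79 in femur. The classes overlapped, and the difference was -0.36 ± 0.37 (SE, adjusted p = 0.528).

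Among the ELR ligands, 2 of the 4 members were measured, and both were brightest in the maxilla. Cxcl5, an epithelial attractant of neutrophils, had -0.97 in maxilla and -6.14 in mandible, against -3.66 in ilium and -3.06 in femur. It was 35.9-fold higher in maxilla than in mandible, the brightest and the dimmest of the bones for this gene. Its class difference of -0.19 ± 1.91 (SE, limma, adjusted p = 0.953) thus averaged bones that lay on either side of the others. Cxcl1, the ligand known as KC, had -3.75 in maxilla and -8.59 in mandible, with -7.37 in ilium and -8.74 in femur. It was well above background in the maxilla alone of the 4 bones, at least 6.28-fold above the mandible. Cxcl2 and Cxcl15 were not well above background in any bone.

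Cxcl16, a transmembrane ligand that also binds oxidised lipoprotein, had -0.16 in maxilla and -1.41 in mandible, against -2.63 in ilium and -2.79 in femur. It was separated between the classes by the size rule, at 1.93 ± 0.50 (SE, limma, adjusted p = 0.088). A second probe gave 1.42, with -0.89 and -1.83 in maxilla and mandible against -2.69 and -2.87 in ilium and femur. On that probe the classes fell short of the size rule. Its receptor Cxcr6 had -0.92 in maxilla and -3.31 in mandible, against -1.99 in ilium and -1.59 in femur. Ligand and receptor were both brighter in maxilla than in mandible, by 2.39-fold for Cxcl16 and 5.23-fold for Cxcr6. The second probe of Cxcl16 gave a log2 difference of 0.94, under 2-fold. The class difference of Cxcr6 was -0.32 ± 0.90 (SE, adjusted p = 0.826), with the ilium and femur between the jaw bones.

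In the other direction, Cxcl14, a homeostatic ligand of epithelium and stroma, had -0.51 in maxilla and 1.73 in mandible, against 1.96 in ilium and 2.01 in femur. The maxilla was the low bone, 4.72-fold below the mandible, and the other 3 bones were close together. Its class difference was -1.37 ± 0.84 (SE, limma, adjusted p = 0.324). The eotaxins Ccl11 and Ccl24 were also lower in maxilla than in mandible, by 2.40-fold and 3.16-fold. The other members at least 2-fold higher in maxilla were Ccl8, Ccl9, Ccl17, Ccl19, Ccl25, Cxcl9 and Cxcl10, at 2.06-fold to 2.79-fold. A second probe of Ccl25 gave a log2 difference of 0.95, under 2-fold.

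**Figure D4:**
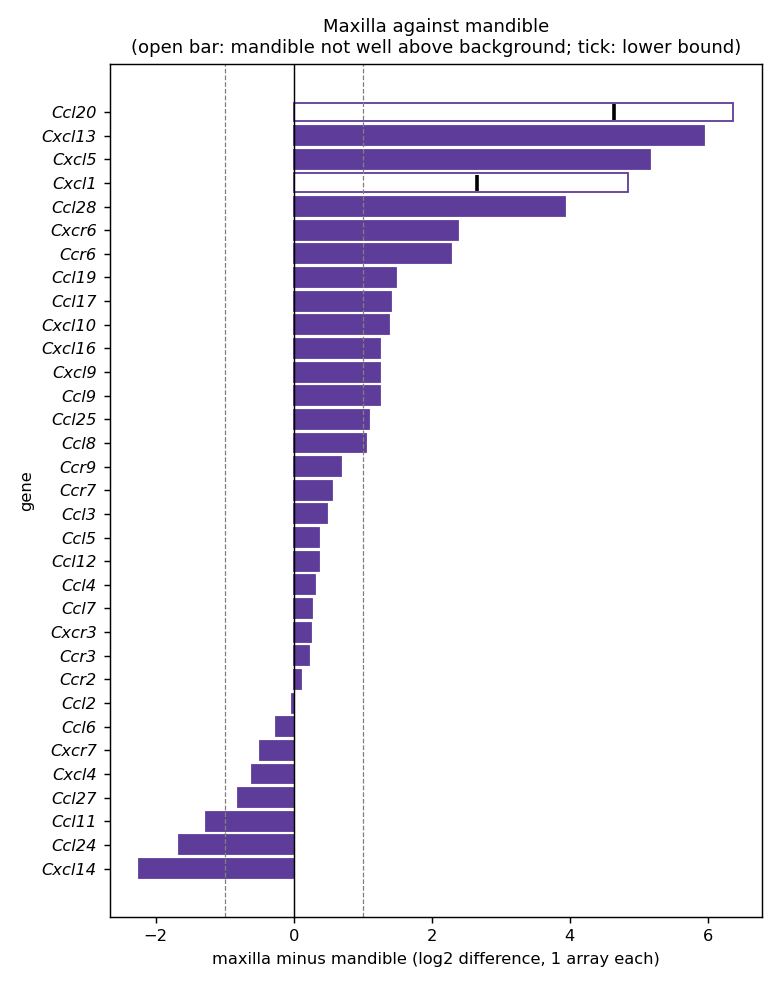
Maxilla minus mandible as a log2 difference for 33 chemokine genes well above background in the brighter of the 2 bones (1 array each). Open bars are genes not well above background in mandible, the tick on them is the lower bound, and dashed lines mark 2-fold. Ccl20, Cxcl13, Cxcl5, Cxcl1 and Ccl28 lie farthest to the right, and Cxcl14 farthest to the left.

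Between ilium and femur, Ccl7 was the 1 of 33 members at least 2-fold higher in ilium (background 2.46% of all genes), and 0 were lower (background 2.71%). It was 2.83-fold higher on the probe used, and a second probe gave a log2 difference of 0.98. With normexp 0 members were 2-fold higher in ilium, and 2 were with median centring or the deposited log2 table. The median absolute difference was 0.45 over the members and 0.20 over all genes, and for maxilla against mandible it was 1.07 over the members and 0.48 over all genes.

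Other chemokine pathway genes whose names do not follow the same pattern were set beside these. Of 13 such genes tested, 4 fell in jaw and 0 rose (7 lower and 2 higher at an unadjusted p under 0.05). Over all genes tested, 7.22% fell and 4.52% rose, with 18.6% lower and 15.7% higher at an unadjusted p under 0.05. The 2 higher were Ccl21c and Cx3cl1, which did not pass (limma, adjusted p = 0.0937 and 0.137). Ccl21c had 2.57 and 0.90 in maxilla and mandible, against -0.46 and -1.27 in ilium and femur. Ccl21a and Ccl21b had no value of their own, and whether this signal comes from Ccl21c alone was not tested. Cx3cl1 had 1.95 and 0.53 in the jaw bones, against -0.30 and -0.50. Ppbp, a platelet ligand for neutrophils stored with Cxcl4, had 2.99 and 3.20 in maxilla and mandible, against 5.46 and 5.83 in ilium and femur, at -2.55 ± 0.24 (SE, limma, adjusted p = 0.0326). Il8rb, the older symbol of the neutrophil receptor Cxcr2, had -0.96 and -0.58 in the jaw bones, against 1.99 and 2.23 in ilium and femur, at -2.88 ± 0.25 (SE, adjusted p = 0.0326). This receptor of the ELR ligands was lower in both jaw bones, as was Ppbp, which is itself an ELR ligand. The ELR ligands Cxcl5 and Cxcl1 were brightest in the maxilla. A relation between them was not tested. Il8ra, the older symbol of Cxcr1, was not well above background in any bone. Darc, a decoy receptor for many chemokines, had -1.21 and -1.20, against 0.99 and 1.46, and Xcl1, a ligand of lymphocytes, had -4.92 and -5.66, against -3.34 and -2.75 (adjusted p = 0.0326 and 0.049).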

How the data were processed

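Each of 4 bones (maxilla, mandible, ilium, femur) had 1 Agilent array. The deposited array files hold spot intensity on a linear scale from Agilent Feature Extraction 9.5.3.1, background-subtracted and detrended before deposit, per the file headers. A deposited table of log2 values, made by the authors with GeneSpring 10.0.2 per the series description, served as an alternative only. Probe names and positions (build mm8) are those of the array design, per the file headers.

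The processed signal was divided by the array's 75th percentile over 43379 non-control spots and taken to log2. That percentile was 809 for maxilla, 1142 for mandible, 1142 for ilium and 1208 for femur. Outlier spots were left out, spots of a probe averaged, and the probe with the highest mean used for a gene. Genes that were well above background on 2 or more arrays (20709) were fitted with limma 3.58.1 in R 4.3.3 (lmFit, eBayes, Benjamini-Hochberg over all of them, threshold 0.05), after a check on simulated data. That check set its noise from ilium minus femur and gave every bone the same noise. The jaw bones differed more, with a median absolute difference of 0.48 against 0.20 over all genes, so the check did not cover their spread. There were 2 residual and 1.759 prior degrees of freedom. With 1 array per bone, p-values measure how bones of a class spread, not how animals do. The number of arrays limits the precision. Ilium against femur and maxilla against mandible had no test, and genes were counted at 2-fold with the brighter bone well above background.

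Genes were named when they passed limma or the size rule, differed 2-fold between the bones of a class, or were among the 3 brightest ligands or receptors (used for naming only). The other members are given in counts and ranges. A member and a marker are not reported here by name, and the figures leave that member out. The members and lists were chosen with earlier results of these data known. Of 52 probes, 50 matched RefSeq by accession, 47 with the same symbol and 3 renamed. Ccl5 has 1 probe, and Cxcl11 its only one, without a match. Alternatives covered background correction, scaling, filter, probe choice, outlier spots, fold and each bone left out.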

Additional observations from a re-analysis of the deposited data

How the results depend on the processing

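Ccl12 was called higher under all 8 alternatives that kept the 4 bones, and of the 6 lower calls only Ccl3 was lost with normexp, while all 6 were lost without the background filter. With a bone left out, the lone bone of a class is assumed to vary like the other class. The number of calls then moved over all genes on the array, so it is not read as a result about the members. The median difference over the members was -1.27 without the maxilla and -0.05 without the mandible. It was -0.61 without the ilium and -0.12 without the femur. Over all genes the median in these fits lay between -0.06 and 0.0011. Lower calls numbered 10 with median centring and 0 with no background filter, where 27742 genes were adjusted for. Size rule counts upwards ranged from 4 to 7 and downwards from 9 to 17 with a bone left out, and at 4-fold were 1 and 0. With normexp and all 4 bones, the size rule gave 2 members upwards and 6 downwards. At 4-fold, 7 members were higher in maxilla than in mandible and 1 (Cxcl14) lower. Reversed signs were few. With a bone left out, Ccl25 ranged from -0.16 to 0.92 and Ccl28 from -0.97 to 2.97, lowest without the maxilla, and Cxcr6 from -1.51 to 0.87 and Cxcl5 from -2.78 to 2.39, highest without the mandible. Cxcl5 had 0.11 without the femur and 0.34 with normexp. The cause was not tested. The median over the members was 0.04 with no filter and -0.82 with the filter on all 4 arrays. Of all calls on the array, 38.5% were higher in jaw, against 26.9% with median centring and 27.3% with the deposited log2 table, which moved the median of all genes to -0.28. Members 2-fold higher and lower in maxilla than in mandible numbered 10 and 4 with median centring or the deposited log2 table, 12 and 3 with normexp, and 15 and 3 with a dim bone at its bound, an alternative chosen after seeing the data. Members 2-fold higher in ilium numbered 0 with normexp or at 4-fold, 2 with median centring or the deposited table, and 3 with no filter, where 1 was lower. No paired analysis was possible because the labels carry no replicate numbers and each bone has 1 array. Genes not well above background have only a bound, so depth of signal limits Ccl20 and Cxcl1. In the mandible Cxcl5 (-6.14), Ccl28 (-5.90) and Cxcl13 (-5.57) also lay near the lowest signal well above background there (-6.40). Their folds of maxilla over mandible are thus less certain.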
